A study of Mus musculus with 2 samples.

Results

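The 40 genes described here act in mitosis, the step in which a cell separates its copied chromosomes and divides. They were chosen by symbol, and each symbol matched exactly 1 of the 31053 genes in the deposited matrices. Male C57/BL6 mice had a middle cerebral artery occlusion (MCAO) of 60 minutes at postnatal day 10 and were left for 2 weeks of reperfusion. Lateral striatum was dissected on the side of the occlusion (ipsilateral) and on the opposite side (contralateral), and after dissociation cells bearing the glial antigens A2B5 or O4, or both, were collected by flow sorting. Each side is 1 droplet library made from the pooled striata of 3 animals, and the contralateral library comes from operated mice, so no unoperated animal was analysed here. With 1 library per side, no difference between the sides has a replicate check, no test across animals could be made, and every interval given here covers counting error only.

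Mitosis begins when the kinase Cdk1 is activated by B-type cyclins. Further kinases and the spindle then attach the chromosomes through their centromeres, and the anaphase-promoting complex, a ubiquitin ligase that works with Cdc20 and Ube2c, marks the cyclins and other proteins for destruction so that the cell can divide. Most of these genes are transcribed in the late part of the cell cycle only, so in a mixed tissue their RNA comes mainly from the few cells that are dividing. In the young brain those are mostly oligodendrocyte precursor cells (OPCs), which spread through the tissue, and the progenitors and neuroblasts of the zone that lines the lateral ventricle.

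The contralateral library held 1913 cells and the ipsilateral library 2505 cells after filtering, with medians of 14595 and 19851 unique molecular identifiers (UMIs, the tags by which captured RNA molecules are counted) per cell. Cells were grouped by clustering, and the clusters were named from marker genes. The clustering left out the 40 genes and the other listed mitosis and replication genes. It also left out the histone genes whose symbols start with Hist and a digit, H2a or H2b. The labels call the sorted cells oligodendrocytes. By markers, 299 contralateral and 380 ipsilateral cells were OPC-like, 487 and 468 were neural progenitor or neuroblast-like (neuroblast-like in what follows), 523 and 952 were mature oligodendrocyte-like and 184 and 128 were endothelial-like. In OPC-like cells the 10 OPC markers summed to 11060 and 9996 UMIs per 1000000 UMIs of these cells (CPM) and the 12 neuroblast markers to 605 and 624 CPM, contralateral first here and throughout. In neuroblast-like cells the same sums were 444 and 443 CPM and 12540 and 12923 CPM. A further cluster of 130 and 111 cells, led by the growth factor receptor gene Egfr, could not be named and is called the Egfr cluster.

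Most cells had few of the genes, and fewer cells had many. Each cell was thinned to 5000 UMIs, which puts cells of different depth on the same footing, and a cell with a UMI of at least 10 of the 40 genes was called member-rich. Of the OPC-like cells, 217 and 267 had a UMI of 0 to 2 of the genes, 50 and 60 had 3 to 9, and 16 and 32 had 10 or more. The member-rich OPC-like cells held a median of 24.5 of the 40 genes on both sides, and 13 and 23 of them had at least 15. At the threshold, 2 cells on each side had 9, and 0 and 2 cells had exactly 10. With another random seed for the thinning, 16 and 35 OPC-like cells were member-rich. Neuroblast-like cells showed a second, broad hump, with a median of 25 genes in the member-rich cells of both libraries.

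**Figure D1:**
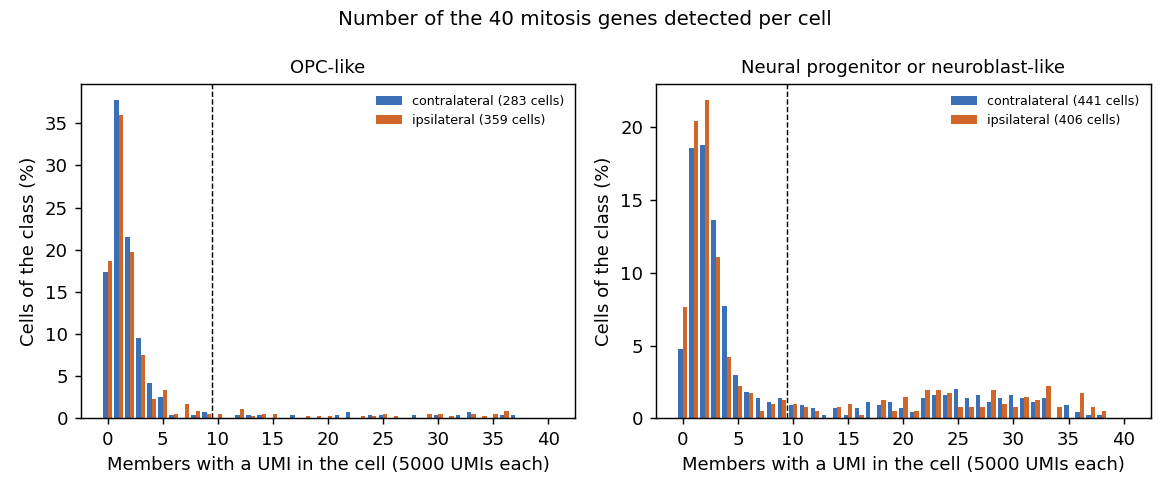
Number of the 40 mitosis genes with a UMI per cell (x axis) against the percentage of the class's cells (y axis), after thinning each cell to 5000 UMIs. Blue bars are the contralateral and orange bars the ipsilateral library, and the dashed line marks the limit of 10 genes. Both classes show a tall hump at low numbers, followed by a thin tail up to 37 genes in OPC-like cells and by a low, broad hump in neuroblast-like cells.

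Member-rich cells made up 5.65% of OPC-like cells contralaterally (16 of 283, exact binomial 95% interval 3.27 to 9.02%) and 8.91% ipsilaterally (32 of 359, 6.18 to 12.4%). The ipsilateral share was higher by 3.26 percentage points, and the interval of that difference, from -1.08 to 7.44 points, includes 0. In neuroblast-like cells the share was 27.9% (123 of 441) and 28.1% (114 of 406), a difference of 0.188 points (-6.01 to 6.41). In the Egfr cluster it was 44.4% (55 of 124) and 45.6% (47 of 103). These 3 populations held nearly all member-rich cells. Mature oligodendrocyte-like cells had 0 of 520 and 0 of 924, which allows a share of up to 0.577% and 0.325% when 3 cells of the total are taken as the limit of a count of 0, and endothelial-like cells had 1 of 167 and 0 of 118.

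The OPC-like class is made of a pair of clusters, and their mix differed between the libraries. Cluster 1, led by Cdo1, Pdgfra and Emid1, held 72.2% of the contralateral and 47.9% of the ipsilateral OPC-like cells. Cluster 4, led by the G1 cyclin gene Ccnd1, the growth-associated gene Gap43 and Pdgfra, held 27.8% and 52.1%. Nearly all member-rich cells lay in cluster 4, where their share was 20.5% (15 of 73) contralaterally and 16.3% (29 of 178) ipsilaterally, a difference of -4.26 points (-16.4 to 6.35). In cluster 1 the share was 0.476% (1 of 210) and 1.66% (3 of 181). So the OPC-like class had a higher ipsilateral share together with a larger cluster 4, while within cluster 4 the ipsilateral share was not the higher one. With both libraries given the same mix of the clusters, the difference of the class was -1.07 points. Cluster and member-rich call went together, so holding the mix fixed may also hold part of the share fixed.

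**Figure D2:**
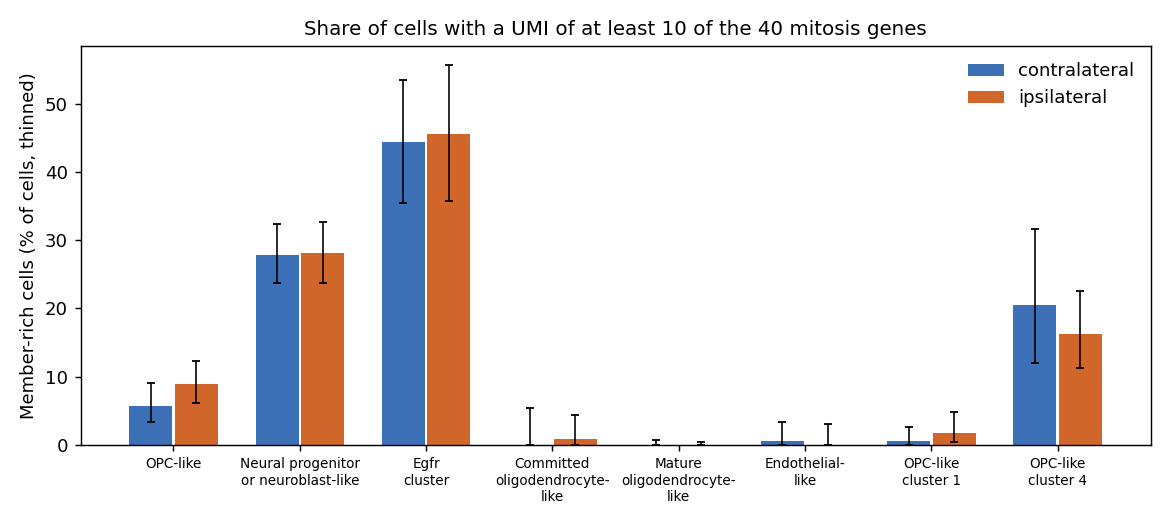
Percentage of cells with a UMI of at least 10 of the 40 mitosis genes, after thinning, in 6 populations and in the 2 clusters of the OPC-like class. Blue bars are the contralateral and orange bars the ipsilateral library, and the whiskers are exact binomial 95% intervals, which cover counting error only. The intervals of both libraries overlap in every population.

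Member-rich cells held most of the RNA of these genes, which follows in part from choosing the cells by the same genes. The shares are over cells of at least 5000 UMIs. In OPC-like cells the member-rich cells carried 6.99% and 11.9% of all UMIs and 76.0% and 80.7% of the UMIs of the 40 genes. In neuroblast-like cells they carried 44.3% and 45.2% of all UMIs and 92.7% and 94.4% of those of the 40 genes. The summed level of the 40 genes in all OPC-like cells was 1612 CPM contralaterally and 2395 CPM ipsilaterally, a log2 ratio of 0.57 (0.52 to 0.62). Within member-rich OPC-like cells it was 17679 and 16328 CPM, a log2 ratio of -0.11 (-0.17 to -0.06). The class as a whole was thus higher ipsilaterally, while its member-rich cells were not. With the same mix of clusters in both libraries, the log2 ratio of the whole class was -0.091, so its direction turned. It was 0.23 with genes correlated with the 40 also left out of clustering. The ratio within member-rich cells also changed sign under other settings, to 0.155 with classes set cell by cell from markers. In cluster 4 over all its cells the sum was 4371 and 3724 CPM, a log2 ratio of -0.23 (-0.28 to -0.18). The remaining OPC-like cells had 419 and 529 CPM, a log2 ratio of 0.34 (0.24 to 0.44).

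Single member-rich OPC-like cells varied far more than the libraries did. The summed level per cell ran from 4289 to 31011 CPM around a median of 14844 contralaterally, and from 2575 to 37879 CPM around a median of 12148 ipsilaterally, so the ranges overlapped almost fully. With 16 and 32 cells, an interval from UMI counts alone is too narrow for the cells of a class in general. Median depth moved with these groups: 12612 and 17442.5 UMIs in member-rich OPC-like cells and 10215 and 12486 in the rest. Without thinning, 8.03% and 13.7% of OPC-like cells passed the limit of 10 genes. No member-rich OPC-like cell was called a doublet.

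In neuroblast-like cells the summed level was 8658 and 9431 CPM, a log2 ratio of 0.12 (0.11 to 0.14), and within member-rich cells it was 18561 and 20186 CPM, a log2 ratio of 0.12 (0.10 to 0.14). The ratio over all neuroblast-like cells was -0.058 when each library was clustered alone. The sums in the Egfr cluster were 7758 and 7965 CPM. Mature oligodendrocyte-like cells had 138 and 134 CPM and endothelial-like cells 526 and 274 CPM. The only member-rich endothelial-like cell lay in the contralateral library, and over the endothelial-like cells of at least 5000 UMIs that were not member-rich the sums were 346 and 275 CPM. In committed oligodendrocyte-like cells, which have left the precursor state, the sums were 294 and 406 CPM. There the only member-rich cell was ipsilateral, and the sums over the other cells of at least 5000 UMIs were 294 and 277 CPM.

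Gene by gene, the ipsilateral excess of the OPC-like class was broad. All 40 genes had at least 20 UMIs in the class, the minimum set for a ratio. On a log2 scale with 5 CPM added to both sides, 39 of 40 were higher ipsilaterally, against 41.1% of all genes tested in these cells. A log2 ratio of at least 0.5 was reached by 21 genes (2.81% of all genes) and of at most -0.5 by 0 genes (3.43% of all genes). The median was 0.53, against -0.05 for all genes. These counts describe the class with its mix of clusters as found: over cluster 4 alone, 11 of the 40 genes were higher ipsilaterally (45.7% of all genes), 0 reached 0.5 (5.26%) and 6 reached -0.5 (5.86%), with a median of -0.23. The count of 21 also depends on the CPM added, since 6 genes reached 0.5 with 20 CPM added.

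In the kinase and cyclin core, Cdk1, the kinase that starts mitosis, had 39.4 CPM in contralateral and 59.1 CPM in ipsilateral OPC-like cells (log2 ratio 0.53). Its partner Ccnb1 (cyclin B1) had 35.9 and 55.7 CPM (0.57). Cks2, a small subunit of the kinase complex, was the only one of the 40 genes that was not higher ipsilaterally, with 58.3 and 56.8 CPM. For its relative Cks1b the log2 ratio was 0.62. Among the mitotic kinases, Plk1, which acts from entry to cell division, had 9.45 and 20.3 CPM (0.81). In the chromosomal passenger complex, which corrects faulty spindle attachment, the kinase Aurkb had 8.82 and 21.5 CPM (0.94) and its subunit Birc5 (survivin) 41.6 and 63.1 CPM (0.55).

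At the centromere, Cenpa, the histone that marks the centromere, had 61.7 and 77.5 CPM (0.31). Its loading factor Hjurp had 96.7 and 109 CPM (0.16), and the kinetochore protein Cenpf 73.4 and 107 CPM (0.52). Ndc80, which links the kinetochore to microtubules, had a log2 ratio of 0.84 from 7.87 CPM contralaterally. Of the 6 centromere and kinetochore genes, Cenpf and Ndc80 reached 0.5. Of the 10 spindle genes 6 did, led by Nusap1, which bundles spindle microtubules, with 24.6 and 53.9 CPM. The widest ratio belonged to Ube2c, the ubiquitin-conjugating enzyme of the anaphase-promoting complex, with 58.6 and 136 CPM (1.15). Among the genes for chromosome structure, Top2a, which untangles DNA, had 103 and 206 CPM (0.97), and Mki67, which coats mitotic chromosomes, had 49.1 and 92.9 CPM (0.86). Smc4, a condensin subunit, had 67.4 and 96.9 CPM (0.49), and Hmgb2, a DNA-bending protein, 327 and 443 CPM (0.43).

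Within member-rich OPC-like cells the pattern was mixed. For each gene the cells were chosen by the other 39 genes, so that no gene chose its own cells. There, 15 of 40 genes were higher ipsilaterally (44.7% of all genes), 3 reached 0.5 (14.6%) and 6 reached -0.5 (17.5%), all shares near those of genes in general. The median was -0.13. The 3 were Ube2c, with 780 and 1128 CPM (log2 ratio 0.53, interval 0.29 to 0.78), Nusap1, with 305 and 443 CPM (0.53, 0.15 to 0.95), and Gtse1, which had only 7 and 37 UMIs. Top2a had 1217 and 1528 CPM (0.33, 0.13 to 0.53).

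The 6 genes on the lower side were Cks2 (652 and 398 CPM, log2 ratio -0.70), Nuf2, Hjurp, Cenpe, Cdca3 and Cenpa (830 and 579 CPM, -0.52). A ratio this low was reached by 17.5% of all genes, so the 6 are listed as a description only. Of these 6, 4 are centromere or kinetochore genes: Nuf2 and the motor Cenpe help to hold microtubules, and Hjurp loads Cenpa. The remaining members of that role were Cenpf, with 976 and 864 CPM, and Ndc80, with 109 and 145 CPM. Cdk1 had 460 and 421 CPM, Ccnb1 492 and 445 CPM, Plk1 137 and 166 CPM, Birc5 561 and 478 CPM, Aurkb 123 and 174 CPM, Mki67 647 and 763 CPM, Smc4 524 and 557 CPM and Hmgb2 2612 and 2392 CPM. For 30 of the 40 genes the counting interval of the ratio included 0. A single contralateral cell carried 37.3% of that library's Nusap1 UMIs in member-rich OPC-like cells, and 35.2% of those of Top2a, so 1 cell weighs heavily in these values.

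**Figure D3:**
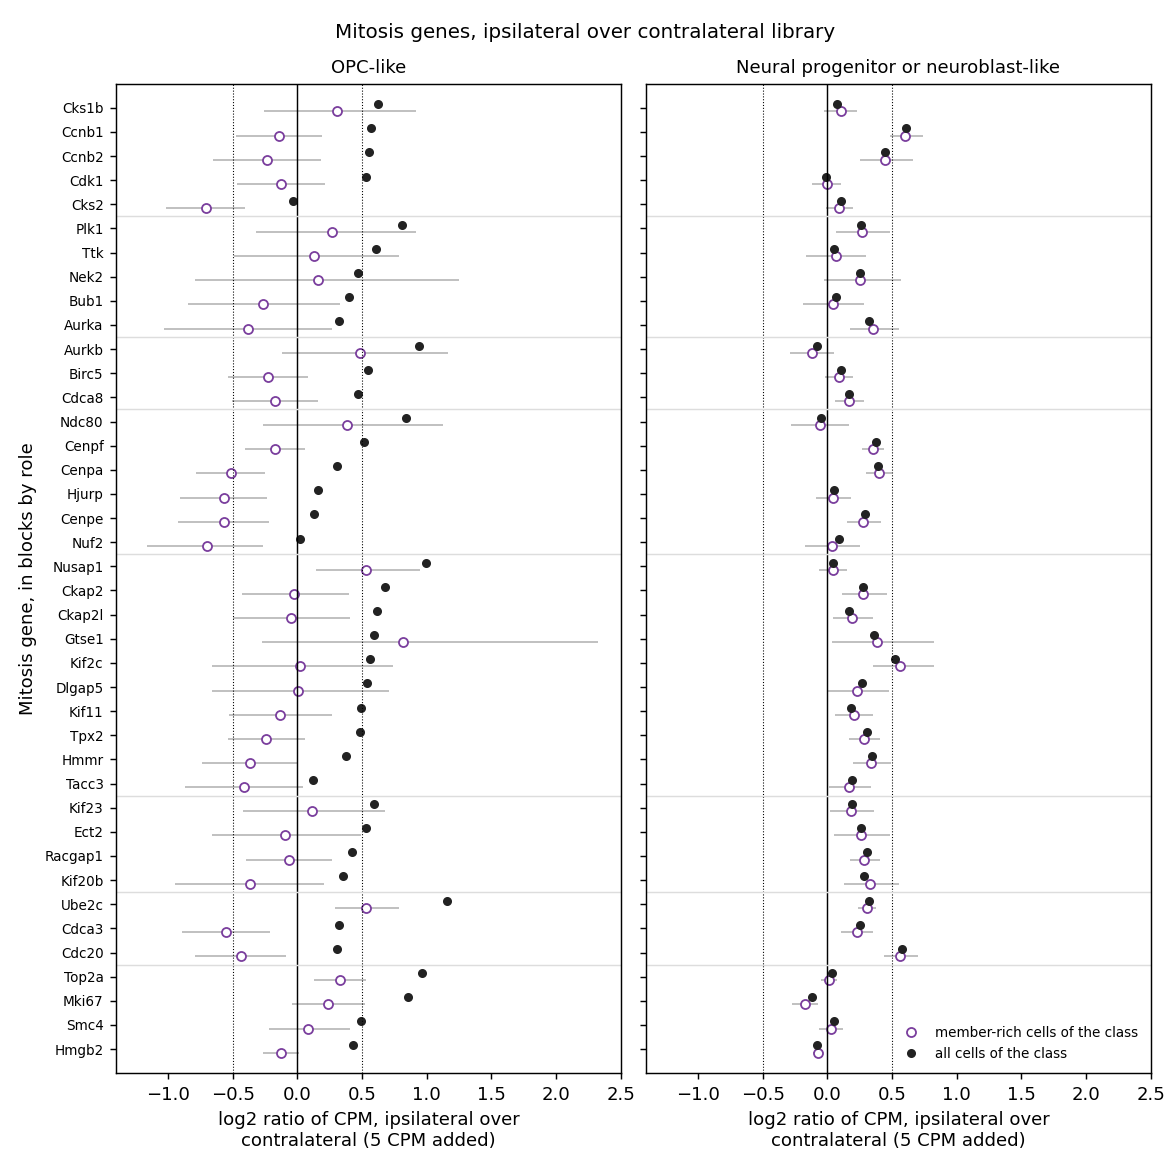
Log2 ratio of CPM, ipsilateral over contralateral with 5 CPM added, for each of the 40 genes in blocks by role, in OPC-like (left) and neuroblast-like cells (right). Filled points are all cells of the class, open points are member-rich cells chosen by the other 39 genes, grey lines are counting intervals of the open points without added CPM, and dotted lines mark -0.5 and 0.5. In OPC-like cells the filled points lie mostly between 0 and 1.15 and the open points on both sides of 0, while in neuroblast-like cells both sets lie close together.

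Neuroblast-like cells gave nearly the same ratios in all cells and in member-rich cells. Over all cells, 35 of 40 genes were higher ipsilaterally (56.4% of all genes), 3 reached 0.5 (1.43%), 0 reached -0.5 (1.03%) and the median was 0.22. Within member-rich cells it was again 35 of 40 (51.8%), with 3 at 0.5 or more (4.21%) and 0 at -0.5 or less (2.78%). Those 3 were Ccnb1, with 302 and 462 CPM (log2 ratio 0.60, 0.48 to 0.74), Cdc20, the activator of the anaphase-promoting complex, with 289 and 428 CPM (0.56), and the kinesin Kif2c, which takes microtubules apart, with 91.5 and 138 CPM (0.56). Cenpa had 509 and 673 CPM (0.40), Cenpf 760 and 972 CPM (0.35) and Ube2c 1098 and 1357 CPM (0.30).

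Genes for chromosome structure lay close to 0. In the same cells Mki67 had 633 and 562 CPM (-0.17), Hmgb2 5335 and 5071 CPM (-0.07), Top2a 1596 and 1614 CPM (0.02) and Smc4 697 and 711 CPM (0.03). Cdk1 had 484 and 483 CPM, Aurkb 216 and 198 CPM, Birc5 511 and 543 CPM, Cks2 548 and 584 CPM, Hjurp 321 and 332 CPM and Plk1 129 and 156 CPM. In the Egfr cluster, 28 of 40 genes were higher ipsilaterally (52.4%), and 3 reached 0.5 (3.55%). Markers of another class moved with the side in these cells: the 12 mature oligodendrocyte markers summed to 416 CPM in contralateral and 1504 CPM in ipsilateral member-rich neuroblast-like cells, and to 419 and 772 CPM in member-rich OPC-like cells. Over all cells of cluster 7, which holds 116 of the 123 contralateral and 105 of the 114 ipsilateral member-rich neuroblast-like cells, they summed to 417 and 601 CPM. A pair of the remaining ipsilateral cells, in cluster 18, had a median of 50912.5 UMIs, and 1 of them was called a doublet. Their part in the values above was not tested.

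DNA replication precedes mitosis. Over all OPC-like cells the 30 listed replication genes (such as Pclaf, Rrm2, Dut and Mcm7) gave ratios like those of the 40. All 30 were higher ipsilaterally (41.1% of all genes), 19 reached 0.5 (2.81%) and the median was 0.54. In parts of the class the lists gave different counts. The replication genes summed to 2366 and 3730 CPM in member-rich OPC-like cells. There, 25 of the 27 measured genes were higher ipsilaterally (44.7% of all genes) and 14 reached 0.5 (14.6%). In the remaining OPC-like cells all 30 were higher ipsilaterally (41.4% of all genes), with a median log2 ratio of 0.44. Over cluster 4 alone 28 of 30 were higher ipsilaterally (45.7% of all genes), beside the 11 of 40 mitosis genes given above. In member-rich neuroblast-like cells the sums were 6925 and 6099 CPM, and 4 of 30 were higher ipsilaterally (51.8% of all genes), with a median of -0.19. Per cell, the median replication level in member-rich OPC-like cells was 811 and 1749 CPM, and the cells ran from 189 to 9808 and from 97.2 to 8762 CPM, so both libraries covered nearly the same range.

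The replication level of a cell was not used to choose the cells, and it ordered the 40 genes in neuroblast-like cells. The member-rich cells were chosen here by all 40 genes, so each compared gene helped to choose its own cells. The counts of these genes are thus not independent of that choice. The 61 member-rich cells with the lowest replication level were set against the 61 with the highest in the contralateral library, and 57 against 57 in the ipsilateral library. In both libraries 29 of the 40 genes had a log2 ratio of at least 0.5 in the cells of low replication level (6.23% of all genes), and 0 had one of at most -0.5 (6.81%). The widest ratio was that of Cdc20, with 50.7 CPM in cells of high and 540 CPM in cells of low replication level contralaterally, and 77.5 and 813 CPM ipsilaterally (3.29 and 3.31). Cenpa followed, with 143 and 895 CPM and with 185 and 1208 CPM (2.60 and 2.67), and Ube2c, with 330 and 1896 CPM and with 457 and 2328 CPM (2.51 and 2.34). At the other end stood Ndc80 (0.24 and -0.01), Nuf2 (0.15 and 0.27), Aurkb (0.23 and 0.22) and Top2a (0.28 and 0.13).

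The order was close to the same in both libraries, so that within member-rich neuroblast-like cells Cdc20, Cenpa, Ube2c and Ccnb1 marked cells low in replication genes, while Top2a, Aurkb, Nuf2 and Ndc80 differed by less than 0.5. Ccnb1 had 128 and 485 CPM contralaterally and 152 and 802 CPM ipsilaterally (1.88 and 2.37). In the Egfr cluster 24 of the 40 genes reached 0.5 in both libraries (3.13%) and 0 reached -0.5 (5.94%). OPC-like cells gave another picture with few cells, 8 against 8 and 16 against 16. There 2 of the 40 genes (Gtse1 and Nek2) had too few UMIs, and 3 reached 0.5 in both (4.81%), namely Cdc20, Ccnb2 and Tacc3. A ratio of at most -0.5 in both libraries was reached by 9 genes (6.26%), among them Top2a (-1.96 and -1.04), Aurkb (-2.10 and -1.35) and Hjurp (-1.77 and -1.14).

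**Figure D4:**
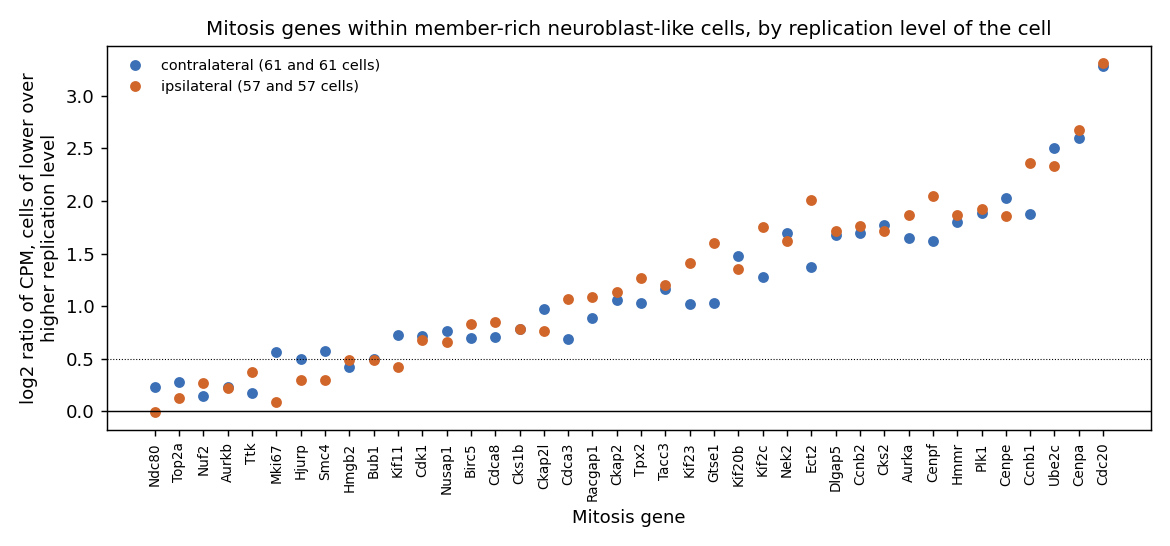
Log2 ratio of CPM (5 CPM added) for each of the 40 genes between member-rich neuroblast-like cells of lower and of higher summed replication level, in the contralateral (blue) and ipsilateral library (orange). Genes are ordered by the sum of both ratios, and the dotted line marks 0.5. The points of the libraries lie close together for most genes and climb from near 0 to 3.31 for Cdc20.

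The member-rich cells of the OPC-like and neuroblast-like classes were compared gene by gene in each library. The OPC-like level was higher in both libraries for 12 genes (41.9% of all genes) and lower in both for 11 (31.6%), and 17 were split. A log2 ratio past 0.5 in both libraries was found for 1 gene on the higher side (20.1% of all genes) and 2 on the lower side (11.4%). Ccnb2 (cyclin B2) had 324 CPM in OPC-like against 128 CPM in neuroblast-like cells contralaterally, and 274 against 176 CPM ipsilaterally. Hmgb2 had 2612 against 5335 CPM and 2392 against 5071 CPM. Cks1b had 150 against 357 CPM and 187 against 384 CPM. The counts of 1 and 2 genes were below the shares of all genes, so these 3 genes are listed as a description only. The compared cells also differed in replication level, with medians of 811 and 1749 CPM in OPC-like and 6578 and 4990 CPM in neuroblast-like cells. Among cells that were not member-rich, Hmgb2 had a UMI in 48.7% and 51.4% of OPC-like and 73.9% and 63.2% of neuroblast-like cells. Whether replication level bears on these 3 genes was not tested.

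**Figure D5:**
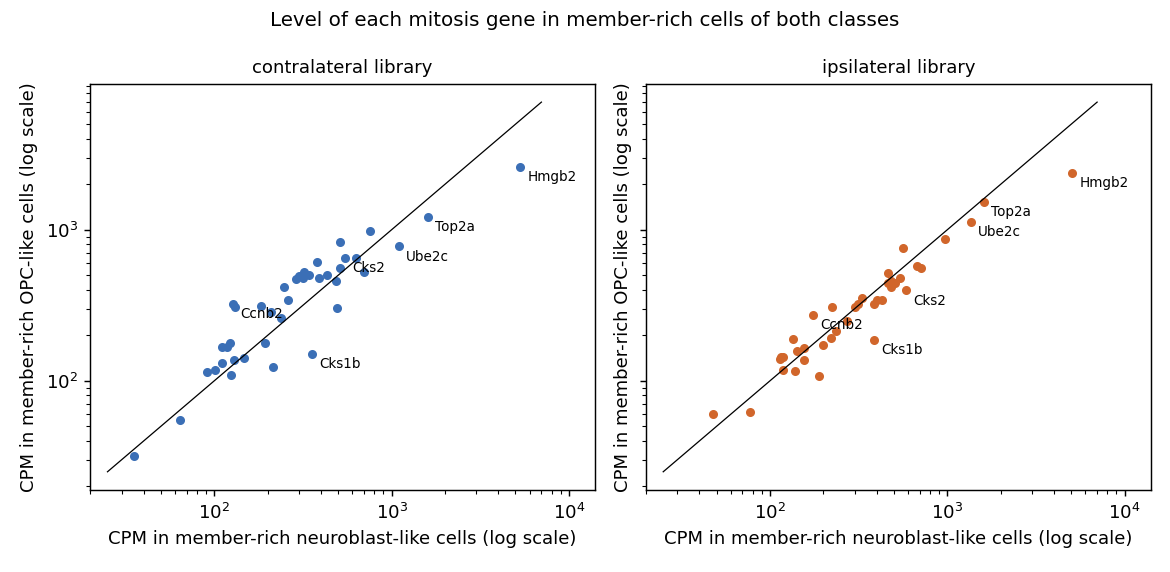
CPM of each of the 40 genes in member-rich neuroblast-like cells (x axis) against member-rich OPC-like cells (y axis), both on log scales, with 1 panel per library and a line of equal levels. Most genes lie along the line in both panels, with Hmgb2 and Cks1b below it and Ccnb2 above it.

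The 40 genes differed in how tightly they kept to member-rich cells. Over kept cells of at least 5000 UMIs, Hmmr, a spindle protein gene, had 97.9% and 98.3% of its UMIs in member-rich cells, and Kif2c 94.8% and 96.6%. Hjurp had only 51.8% and 44.1% there, Smc4 69.0% and 62.7%, Ckap2 70.5% and 67.3%, Cks1b 70.7% and 71.0% and Hmgb2 78.6% and 77.6%. In mature oligodendrocyte-like cells, which do not divide, Hmgb2 had a UMI in 11.3% and 12.7% of cells thinned to 5000 UMIs, Smc4 in 13.1% and 12.4% and Hjurp in 8.85% and 10.3%. Such shares can also come from RNA that was free in the droplets, which was not tested. Top2a, with more UMIs over all kept cells than Smc4 or Hjurp, had a UMI in 0.962% and 1.30% of mature oligodendrocyte-like cells. Those cells had medians of 27269 and 28380 UMIs before thinning and OPC-like cells 10151 and 12355.5. Among OPC-like cells that were not member-rich, Hmgb2 had a UMI in 48.7% and 51.4%, Hjurp in 27.7% and 26.0% and Smc4 in 15.7% and 12.2%. How much of these shares comes from free RNA was not tested. Hmgb2 alone made up 28.7% of the UMIs of the 40 genes over both libraries, so summed levels lean on it. Kif23, which builds the midzone of the dividing cell, had a UMI in 8.43% and 8.47% of endothelial-like cells that were not member-rich, against 1.12% and 0.305% of such OPC-like cells and 0.192% and 0.108% of mature oligodendrocyte-like cells.

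Some of the 40 genes share sequence with close copies, and their counts are less certain. In the GENCODE M21 transcripts, 31.7% of the 31-base words of Cks2 also occur in another gene (Gm15452), as do 27.7% of those of Ccnb1, 25.5% of Cdc20, 21.4% of Hmgb2, 17.3% of Cks1b and 14.8% of Plk1. How reads in such stretches were assigned is not given in the sources used here.

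Genes of this kind are known to be switched on late in the cycle through promoter elements, the CCAAT box bound by NF-Y and the cell cycle homology region (CHR) bound by the DREAM and Myb-MuvB complexes. The RefSeq promoter table for build GRCm38.p6 matched 36 of the 40 genes. Tpx2, Aurkb, Smc4 and Dlgap5 had no entry. In the 250 bases before each start, CCAAT was found on either strand in 29 of the 36 (80.6%), against 33.8% of all 32851 windows of the table. The CHR core, searched as TTTGAA or TTCGAA on either strand, was found in 13 (36.1%), against 17.1% of all windows, and both elements in 12 (33.3% against 6.02%). A pair of CCAAT boxes whose starts lie 31 to 34 bases apart, a spacing chosen after the sequences were seen, was found in 8 (22.2% against 1.08%). The bases just after the start were found in a GENCODE M21 transcript of the gene for 27 of the 36, and Hmgb2 is not among these. Each of the 36 genes enters with a single window, while the comparison counts every window of the table. The table holds every kind of gene, and windows of like base composition were not compared, so these shares are descriptions.

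The 120 bases before the start are shown for 4 genes named above whose stretch overlaps no GENCODE M21 exon. Ccnb2 was higher in member-rich OPC-like than in member-rich neuroblast-like cells, and Hmgb2 was lower in that comparison. Top2a had one of the widest ratios between the sides in OPC-like cells, and Cks2 was not higher ipsilaterally. The stretches are written 5′ to 3′ on the gene's strand, with CCAAT boxes and CHR cores in capitals. They lie at chr9:70421555-70421674 (Ccnb2, minus strand), chr8:57511723-57511842 (Hmgb2, plus strand), chr11:99024190-99024309 (Top2a, minus strand) and chr13:51645112-51645231 (Cks2, plus strand).
Ccnb2: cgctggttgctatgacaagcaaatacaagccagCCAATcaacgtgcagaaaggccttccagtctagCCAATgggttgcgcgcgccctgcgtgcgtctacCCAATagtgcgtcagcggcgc
Hmgb2: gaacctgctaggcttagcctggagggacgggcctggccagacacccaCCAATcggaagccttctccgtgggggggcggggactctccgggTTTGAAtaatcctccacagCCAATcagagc
Top2a: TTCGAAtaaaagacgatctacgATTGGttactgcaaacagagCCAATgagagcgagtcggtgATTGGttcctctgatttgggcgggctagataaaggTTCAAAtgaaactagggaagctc
Cks2: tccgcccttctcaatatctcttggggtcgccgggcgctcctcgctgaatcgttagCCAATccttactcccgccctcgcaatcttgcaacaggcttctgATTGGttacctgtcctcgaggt
ATTGG and TTCAAA are the same elements read on the opposite strand. All 4 stretches hold at least a pair of CCAAT boxes, and those of Ccnb2 and Cks2 hold no CHR core as searched. The window of Ccnb2 holds one farther from the start.

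The wider pathway was high in the same cells. Of 60 further mitosis genes, 49 had enough UMIs in OPC-like cells, and 46 of these had a log2 ratio of at least 0.5 of member-rich over other cells in both libraries (6.55% of all genes). In neuroblast-like cells it was 60 of 60 (9.81%). Prc1, which bundles the midzone microtubules, had 843 CPM in member-rich and 3.77 CPM in other OPC-like cells contralaterally, and 566 and 4.61 CPM ipsilaterally. Aspm, a spindle pole gene, had 337 against 2.06 CPM and 267 against 1.98 CPM, and the S and G2 cyclin gene Ccna2 269 against 2.74 CPM and 317 against 3.74 CPM. The histone gene H2afx (725 against 72.0 CPM and 772 against 82.4 CPM) and the tubulin gene Tubb4b (1044 against 318 CPM and 944 against 319 CPM) were higher too, over a larger level in other cells.

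Between the sides, the further mitosis genes gave a like picture in OPC-like cells. Over all cells 56 of 60 were higher ipsilaterally (41.1% of all genes), 15 reached 0.5 (2.81%) and the median was 0.36. Over cluster 4 alone the direction turned, with 16 of 60 higher (45.7%), 10 at -0.5 or less (5.86%) and a median of -0.19. Within member-rich cells 18 of the 58 measured were higher (44.7%) and the median was -0.17. A further list held 22 genes for transcriptional regulators of the mitosis program. In neuroblast-like cells 16 of 22 were higher by at least 0.5 in member-rich than in other cells of both libraries (9.81% of all genes). In OPC-like cells it was 5 of the 16 measured (6.55%). Foxm1, the activator of late cell cycle genes, had 83.4 against 3.21 CPM and 89.5 against 3.31 CPM in neuroblast-like cells.

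Class markers were present in the member-rich cells, most at a lower level. In OPC-like cells the 10 OPC markers summed to 8283 CPM in member-rich against 11261 CPM in other cells contralaterally, and to 6807 against 10430 CPM ipsilaterally. The OPC marker Cspg4 had 406 against 583 CPM and 390 against 532 CPM, and Gpr17, a receptor of committed precursors, 283 against 656 CPM and 377 against 618 CPM. The 12 neuroblast markers summed to 793 against 593 CPM and 653 against 616 CPM in these OPC-like cells, and the neuroblast gene Dcx had 54.7 against 111 CPM and 84.5 against 121 CPM. Microglia markers summed to 18.2 against 36.7 CPM and 14.6 against 32.1 CPM, with 8 of 10 at 0 in the member-rich cells of both libraries.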

How the data were processed

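The deposited values are UMI counts per gene and barcode, which the authors produced with Cell Ranger 3.1.0, and the genome build was mm10, both per the submitters' processing notes. The annotation used for counting is not given in the sources used here. Totals were 36063045 UMIs over 2066 contralateral barcodes and 54788795 over 2775 ipsilateral barcodes, and the libraries shared 0 barcodes. Side was taken from the sample titles.

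Barcodes with at least 500 genes and at most 15% mitochondrial UMIs were kept. Scrublet (expected rate 0.05) called 10 and 26 of them doublets (0.523% and 1.04%), which were kept. With scanpy 1.11.5 and leidenalg 0.10.2, counts were scaled to 10000 per cell, put on a log scale and clustered jointly from 2000 variable genes with 30 components and 15 neighbours at Leiden resolution 1, without integration. Thresholds for naming clusters were set after seeing the data. Cluster 7 of the neuroblast-like class was led by mitosis genes although these were left out, so genes that move with them still shaped the clusters.

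Cells were thinned to 5000 UMIs for member counts only, and shallower cells were left out of them: 16 and 21 OPC-like cells, and 46 and 62 neuroblast-like cells. The other or remaining cells set beside member-rich cells are likewise those of at least 5000 UMIs. CPM are summed UMIs of a gene per 1000000 UMIs of the cells named. Share intervals are exact binomial, the limit of a count of 0 is 3 cells of the total, differences of shares use the Newcombe method on those, and ratio intervals come from the exact binomial interval of both counts, all at 95%. With 1 library per side no p-value was computed. The ratio and interval steps were tested on simulated counts, and the thinning step was checked on barcodes of the deposited data.

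The 40 genes, the gene lists and the markers were chosen with earlier results of these data known. Named members are the 10 with most UMIs and Mki67, Cdk1, Ccnb1, Aurkb, Plk1 and Cenpa in full, others where they lead a count. Other named genes are those with the widest ratios of member-rich over other cells, the listed genes with most UMIs, and class markers, of which 1 is not reported here. Alternatives covered cell filters, doublets, clustering, the number of members, thinning, weighting, scaling and the CPM added.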

Additional observations from a re-analysis of the deposited data

Results flagged for a closer look

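The level of the 40 genes within member-rich cells went in opposite directions in the 2 classes. In OPC-like cells the log2 ratio of the summed level, ipsilateral over contralateral, was -0.11, and in neuroblast-like cells it was 0.12. This opposition depends on the classes: with a class per cell from markers the ratios were 0.155 and 0.131, and with at least 15 members they were 0.0029 and 0.110. With 1 library per side the difference between the classes was not tested. The OPC-like value rests on 16 and 32 cells and the neuroblast-like value on 123 and 114.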

How the results depend on the processing

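No paired analysis was possible because each side has 1 library, and leaving out a replicate was not possible for the same reason. The OPC-like share difference (3.26 points) ran from -1.07 points, with the same mix of clusters on both sides, to 6.34 points, was above 0 under 15 of 16 alternatives and moved by less than its counting interval in all 16. The OPC-like summed level (log2 ratio 0.57) reversed to -0.091 with the same mix of clusters. It was 0.43 with each cell weighted equally, 0.64 with median-of-ratios scaling, 0.23 with genes correlated with the 40 also left out of clustering and 0.66 with a class per cell from markers. The OPC-like level within member-rich cells (-0.11) turned to 0.00 (0.0029) with at least 15 members and to 0.16 (0.155) with a class per cell, and was -0.19 without thinning, -0.23 with another seed, -0.24 with correlated genes left out and -0.037 without Hmgb2. The neuroblast-like share difference (0.188 points) ran from -3.35 to 2.49 points. The neuroblast-like summed level (0.12) reversed to -0.058 with each library clustered alone, and was 0.10 (0.105) with a stricter filter, 0.09 with cycle genes kept (0.0858) and with correlated genes left out (0.0941), 0.22 with the same mix, 0.036 with equal weights, 0.10 (0.0952) with median-of-ratios scaling and 0.20 without Hmgb2. Within member-rich neuroblast-like cells (0.12) it was 0.15 with no filter (0.152) and at resolution 0.5 (0.148), 0.092 with each library alone, 0.16 with at least 5 members (0.157) and without thinning (0.164), 0.075 with another seed and 0.19 without Hmgb2. The count of 21 genes at 0.5 or more in OPC-like cells was 6 with 20 CPM added, 27 with 1 CPM added and 19 with at least 100 UMIs. The causes of these shifts were not tested. Leaving out correlated genes, classing each cell from markers, leaving out Hmgb2 and adding the Egfr cluster to the neuroblast-like class were chosen after seeing the data. Depth limits single genes in the 16 and 32 member-rich OPC-like cells, where 30 of 40 counting intervals include 0.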

Other observations

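Inhibitors of cyclin-dependent kinases were among the genes that were higher in member-rich cells. Cdkn2c had 342 CPM in member-rich against 16.1 CPM in other OPC-like cells contralaterally, and 276 against 18.2 CPM ipsilaterally. In neuroblast-like cells it had 172 against 26.6 CPM and 170 against 25.0 CPM. Cdkn2d had 196 against 47.3 CPM and 177 against 46.4 CPM in OPC-like cells, and 230 against 53.7 CPM and 244 against 59.6 CPM in neuroblast-like cells. Cdkn1b, a further inhibitor, differed little in neuroblast-like cells, with 271 against 232 CPM and 298 against 242 CPM. Cdkn2c and Cdkn2d were thus higher in member-rich cells of both classes in both libraries.

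Some genes were lower in member-rich cells of both libraries. In OPC-like cells the Notch target gene Hes5 had 72.9 against 349 CPM and 32.5 against 233 CPM, Pcp4 45.6 against 237 CPM and 21.1 against 118 CPM, and Chgb, a secretory granule gene, 22.8 against 108 CPM and 16.3 against 102 CPM. In neuroblast-like cells the long noncoding RNA Meg3 had 143 against 1222 CPM and 74.5 against 1542 CPM, and Prokr2, a receptor gene of migrating neuroblasts, 1.10 against 67.4 CPM and 1.10 against 113 CPM. Pcp4 was lower there too, with 8.82 against 157 CPM and 1.46 against 50.6 CPM.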
